A study of Mus musculus with 22 samples.

Results

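Some stretches of the mouse genome yield RNAs that end at many poly(A) sites, the positions where an RNA is cut and given its poly(A) tail. Such stretches were defined here as chains of 5 or more sites. Reads were pooled over the 20 libraries of the 3′READS assay, which reads RNA from its poly(A) tail inward and so counts 3′ ends. Sites with at least 200 pooled reads outside the mitochondrial chromosome were kept. Kept sites on the same strand were joined wherever neighbours lay no more than 5000 nt apart. This gave 17313 kept sites in 11230 chains, and 225 chains held 5 or more. The 225 chains made up 2.00% of all chains and contained 1312 sites, or 7.58% of the kept sites, and 7.66% of the pooled reads. The chains were thus chosen by their number of sites and the pooled reads of each site, so both are given as descriptions and not tested. No contrast between groups entered the choice, but 12 of the 20 libraries were from C2C12 cells, so sites used in that line passed the minimum most easily. A site read mainly in a single group could also pass the minimum through that group.

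As background, most mammalian genes carry more than one poly(A) site. Sites in the last exon give transcripts with shorter or longer 3′ untranslated regions, and sites in introns give truncated transcripts. The use of one site in place of another is called alternative polyadenylation. PCF11 is a subunit of the cleavage and polyadenylation machinery that binds the C-terminal domain of RNA polymerase II and also takes part in transcription termination. The study examined how Pcf11 and differentiation affect the choice of sites.

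The libraries fell into 10 groups of 2. C2C12 cells, a mouse myoblast line, were labelled siPcf11 or control, and from each both total RNA (called input in the titles) and 4sU RNA were sequenced. RNA labelled with 4-thiouridine (4sU) was made during the last 1 h of culture, with 50 µM of the uridine analogue. NIH3T3 fibroblasts were likewise labelled siPcf11 or control. 4T1 mammary carcinoma cells were labelled Pcf11-IPAKO or control, with no word on whether the Pcf11-IPAKO cells are 1 clone. A separate pair of C2C12 groups was titled as differentiated and proliferating, both with no treatment and no day of differentiation given. The labels name the controls of the other experiments untreated and name no control siRNA, so siRNA transfection and the loss of Pcf11 cannot be told apart. Whether the 2 libraries of a group stem from separate cultures is not stated, so p-values measure only how far those libraries differ, which can be technical.

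Libraries held 1887532 to 4432717 reads, of which the 225 chains took 6.37% to 9.98%. A chain had a median of 212 to 657 reads per library. In the 4T1 experiment the libraries differed in more than depth: the Pcf11-IPAKO libraries listed 105666 and 203899 positions, the 4T1 controls 53146 and 97285. Kept sites took 87.8% and 87.7% of the reads in the Pcf11-IPAKO libraries, and 94.0% and 93.4% in the 4T1 controls. The level of Pcf11 itself and muscle markers could not be looked at, as the tables pair no gene with a site and are in mm9, another build than the annotation at hand. For the same reason chains are named by mm9 position and carry no gene, exon or UTR. A chain may hold several genes or part of one.

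Part of what made a chain site-rich lay in how positions were listed. Within members, 170 of 1087 neighbouring pairs of sites lay 24 nt or less apart, and none of these 170 pairs was read in a common cell line. The same 3′ end thus stood at slightly different positions in the C2C12, NIH3T3 and 4T1 tables. At the chain at 55780476 to 55782617 on chromosome 13 (plus strand), for example, C2C12 libraries had reads at 55780476 and none at 55780478, while NIH3T3 and 4T1 libraries had the reverse. When sites up to 24 nt apart were merged, 144 chains still held 5 or more sites and 81 did not. Of the 1312 sites, 826 were read in all 3 lines, 265 in 2 and 221 in 1. Counted without merging, 145 chains had 5 or more sites read in C2C12, 110 in NIH3T3 and 119 in 4T1. A line's own listing of a site was dropped where it had under 200 pooled reads, and such positions within 24 nt of a member site held 0.062% of the reads in C2C12, 0.54% in NIH3T3 and 0.33% in 4T1. Where a site is followed from one line to another below, all reads within 24 nt of it are counted or merged sites are used.

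The 225 chains had a median span of 2418 nt (57 to 14070 nt) and a median distance of 230 nt between neighbouring sites. Chains of 5 sites, just inside the limit, had a median span of 1830 nt and 7643 pooled reads. Chains of 4 sites, just outside it, had 1815 nt and 5851 reads. The distribution fell off steeply, with 125 chains of 5 sites, 64 of 6, 18 of 7 and 18 of 8 or more. At the read limit, 352 sites had at least 200 and under 210 pooled reads, and 394 had at least 190 and under 200. With a limit of 210, 10 chains of 5 sites would have had fewer than 5.

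Reads were spread unevenly within chains. The most used site took a median of 48.4% of a chain's pooled reads (24.1% to 99.4%). It was the most 5′ site in 31 chains, the most 3′ site in 48 and an inner site in 146. Expressed as an effective number of sites (the number of equally used sites that would give the same entropy), the pooled median was 3.71 and the range 1.04 to 8.43. These pooled values use unmerged positions, so an end listed apart in each line counts as several sites. With sites merged, the median top share per group was 54.5% (control C2C12 4sU RNA) to 59.6% (NIH3T3 controls). The mean effective number per group was then 2.63 (siPcf11 NIH3T3) to 3.18 (control C2C12 total RNA).

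The chain with the most sites lay at 39979985 to 39985752 on chromosome 17 (plus strand), with 17 kept sites, or 14 after merging. In control C2C12 total RNA its first site took 36.5% and 37.9% of the reads, and the sites up to 1341 nt downstream shared much of the rest. The next, at 88241480 to 88248574 on chromosome 1 (minus strand), had 15 sites, 12 after merging. Of its reads 87.3% (mean of control C2C12 total RNA) fell at the site 1503 nt from the 5′ end, which the 4T1 tables listed at 1516 nt. The chain at 17615450 to 17616968 on chromosome 6 (plus strand) held 12 sites, 10 after merging, within 1518 nt, and none took more than 29.6% in the same libraries. Many sites thus went with both concentrated and dispersed use. At the extremes of length, the chain at 8844224 to 8858294 on chromosome 16 (plus strand) spread 8 sites over 14070 nt. The chain at 106493886 to 106493943 on chromosome 7 (minus strand) spanned 57 nt, and its 5 listed positions merged into 2 sites.

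The chains with the most reads were close to single-site. At 90417826 to 90419345 on chromosome 3 (plus strand), with 710632 pooled reads, the site 511 nt from the 5′ end took 98.8% to 99.8% of the reads in all 10 group means. At 104869929 to 104870392 on chromosome 5 (plus strand), the site 140 nt from the 5′ end took 98.7% to 99.8%. In chains with that many reads, sites with a very small share of the reads passed the minimum of 200.

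Between untreated cell lines the preferred site often differed. Of 224 chains with a top site in every line, 116 had the same merged site on top in control C2C12 total RNA, NIH3T3 and 4T1. In 89 one line differed from the others, and in 19 each line had its own. No read minimum was set, so a top site could rest on very few reads. The chain starting at 45431177 on chromosome 1 (minus strand), for example, had 1 and 0 reads in the 4T1 controls. Within control C2C12 cells, the top merged site differed between 4sU and total RNA at 28 of 224 chains. Top sites were not compared over all chains. The chain at 162965598 to 162968670 on chromosome 1 (plus strand) showed the most complete exchange among the highly read ones. The site 3072 nt from the 5′ end took at least 99.9% of reads in NIH3T3 and 4T1 groups and had 29 reads within 24 nt in the 12 C2C12 libraries together. In control C2C12 total RNA the sites at 1978 and 2215 nt took 28.4% and 37.7%. Its level differed as well, with 7385 and 6663 reads per 1000000 library reads (CPM) in NIH3T3 controls and 10885 and 13974 CPM in 4T1 controls, against 89.6 and 110 CPM in control C2C12 total RNA. These lines were not processed as one experiment, and the differences were not tested.

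Comparisons within each line rested on 4 measures per chain. The level is the chain's reads, tested with edgeR's quasi-likelihood test. Site use asks whether the split of reads over the sites differs, tested with edgeR's diffSpliceDGE. The mean position is the read-weighted mean of site positions, as a percent of the span from the most 5′ (0) to the most 3′ site (100). Evenness is the entropy of site use relative to its maximum over the kept sites. Position and evenness were tested with limma. All tests ran over all chains, and a chain was called where its p, adjusted by Benjamini-Hochberg over all chains tested, was under 0.05. With 2 libraries against 2 an exact permutation test cannot give a p below 0.333, so averages over chains carry no p.

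In C2C12 total RNA, 3′ ends of the chains lay further 3′ in siPcf11 than in control libraries on average, and single chains moved in both directions. The average mean position over 219 chains was 50.1% and 50.5% in the siPcf11 libraries, against 48.7% and 49.1% in the controls. The groups did not overlap, and their means differed by 1.40 percentage points. The average share of the most 3′ site differed by 2.32 points, that of inner sites by -1.63 points and that of the most 5′ site by -0.69 points. The median chain differed by 0.46 points, against 2.23 points over all 3046 chains tested. The fitted difference was above 0 at 123 of 224 chains (54.9%, against 63.7% of all chains). With gaps of up to 2000 nt, which selects other chains, the average difference was 0.35 points.

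**Figure D1:**
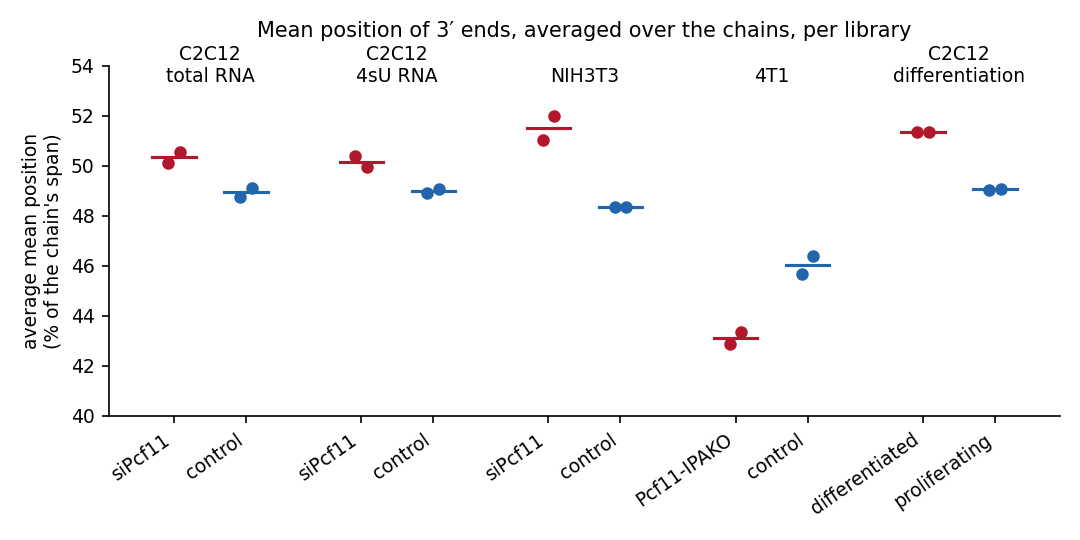
Average read-weighted mean position over 219 chains (y axis, percent of the span) for each of the 20 libraries (points) with the group mean (line). siPcf11 and differentiated libraries lie above their controls, both Pcf11-IPAKO libraries (42.9% and 43.3%) lie below both 4T1 controls (45.7% and 46.4%), and the y axis does not start at 0.

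Site use changed at 129 of 222 chains tested, where 38.8% of all chains tested were called. Mean position was called at 76 of 224 chains, 48 further 3′ and 28 further 5′ (26.9% of all chains, 20.5% further 3′ and 6.40% further 5′). Calls toward the 5′ end thus made up 28 of 76, against 195 of 818 over all chains. Evenness was called at 49 of 224, 17 higher and 32 lower (21.4% of all chains, 8.57% higher and 12.8% lower), and counts fell to 22 without either control library and to 31 without siPcf11 replicate 1. The effective number of merged sites was 3.05 and 3.03 in siPcf11 libraries and 3.18 and 3.18 in controls, so reads sat on slightly fewer sites. Without control replicate 1 the number of position calls was 46.

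The chain at 55780476 to 55782617 on chromosome 13 had the largest shift toward 3′ ends. Its most 3′ site, 2141 nt from the first, took 82.5% and 78.9% of the reads in siPcf11 libraries, against 44.4% and 45.9% in controls. The most 5′ site took 7.27% and 11.8% in siPcf11 and 34.3% and 28.6% in controls. Mean position was 83.4% and 79.7% in siPcf11 libraries and 46.0% and 48.1% in controls, with no overlap (difference 34.5 points, SE 1.58, limma adjusted p = 4.15e-05). Its reads were 440 and 550 in siPcf11 and 428 and 468 in control libraries. The siPcf11 libraries held 1887532 and 2455002 reads in all and the controls 2265023 and 2476170. Relative to depth, the chain thus had more reads in siPcf11 libraries.

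A second chain with this pattern lay at 77731923 to 77736349 on chromosome 10 (minus strand). The site 3812 nt from the 5′ end took 78.4% and 73.9% of the reads in siPcf11 libraries, against 24.9% and 29.8% in controls. The site at 4 nt took 6.17% and 8.19% in siPcf11 and 47.9% and 41.9% in controls. The most 3′ site, at 4426 nt, did not gain, with group means of 5.10% in siPcf11 and 13.2% in controls. Mean position differed by 32.5 points (SE 1.97, limma adjusted p = 8.50e-05). At the third, 115592990 to 115597980 on chromosome 5 (minus strand), the most 3′ site took 67.1% and 74.5% in siPcf11 against 27.6% and 33.4% in controls. That chain also had fewer reads, 73 and 110 in siPcf11 and 304 and 347 in control libraries.

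**Figure D2:**
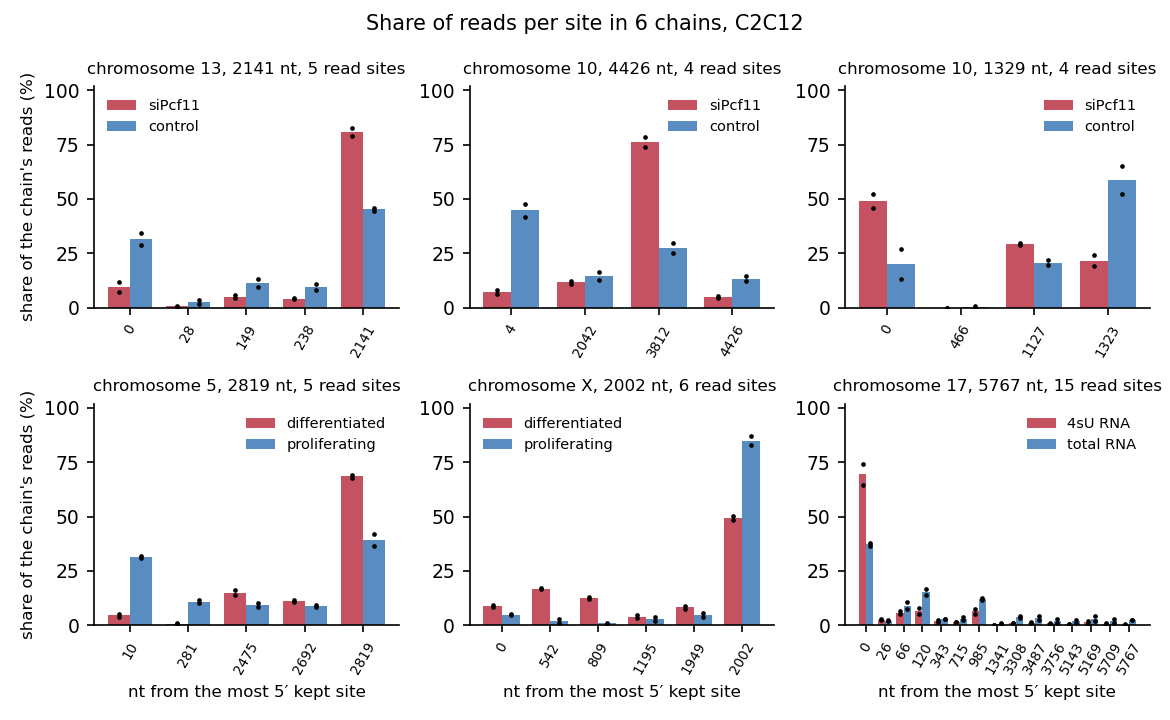
Share of a chain's reads (y axis, percent) at each site read in the groups shown, ordered by distance in nt from the most 5′ kept site (x axis, not to scale), in 6 C2C12 chains. Bars are group means and dots the 2 libraries. Upper row: siPcf11 and control total RNA. Lower row: differentiated and proliferating cells (chromosomes 5 and X), and 4sU and total RNA of control cells (chromosome 17). The chromosome 13 chain (80.7% against 45.2% at its last site) and the chromosome 10 chain of 1329 nt (21.7% against 58.7% at its last read site) move in opposite directions.

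Other chains moved toward their 5′ end. The chain at 23504948 to 23506277 on chromosome 10 (minus strand) had 52.2% and 46.1% of its reads at the most 5′ site in siPcf11 libraries, against 13.3% and 27.0% in controls. Its site at 1323 nt took 19.0% and 24.3% in siPcf11 and 65.1% and 52.4% in controls. Mean position differed by -29.9 points (SE 4.61, limma adjusted p = 0.00336). The level was higher as well, with 120 and 114 CPM in siPcf11 and 36.6 and 50.9 CPM in controls (log2 fold change 1.58, SE 0.16, edgeR adjusted p = 4.09e-16). The chain at 151611258 to 151613037 on chromosome 5 (plus strand) had 86.0% and 84.9% at its most 5′ site in siPcf11 and 56.4% and 65.2% in controls. At 10395466 to 10400289 on chromosome 17 (minus strand) mean position was 26.2% and 17.4% in siPcf11 and 38.9% and 40.4% in controls, resting on 56 reads in each siPcf11 library.

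Levels of 148 of 224 chains differed, 58 higher and 90 lower in siPcf11, where 54.2% of all chains were called (25.4% higher, 28.9% lower). The median log2 fold change was -0.13 over the chains and -0.02 over all chains tested. Scaling to library totals moved the median of all chains to -0.18 and the split to 47 higher and 109 lower. The largest rise was at 12193870 to 12194177 on the X chromosome (plus strand), with 112 and 135 CPM in siPcf11 and 34.0 and 33.5 CPM in controls (log2 fold change 2.05, SE 0.17, edgeR adjusted p = 4.52e-22). Its site use was not called. The largest fall was at the chain starting at 118660276 on chromosome 2 (plus strand), with 11.1 and 9.78 CPM in siPcf11 against 115 and 99.7 CPM in controls (log2 fold change -3.20, SE 0.22, edgeR adjusted p = 1.62e-28). A fall of similar size stood at the chain starting at 5842307 on chromosome 19 (minus strand), with 12.7 and 14.7 CPM in siPcf11 and 110 and 96.9 CPM in controls.

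Chains called for position were called for level in both directions. Of the 48 chains that moved further 3′, 19 rose and 19 fell in level, and of the 28 that moved further 5′, 8 rose and 9 fell. Of all chains tested for level, 25.4% rose and 28.9% fell. Chains that moved further 3′ had a median span of 2617 nt, and those that moved further 5′ 2404 nt. The top site in the pooled reads was the most 3′ one in 18 of the 48 and 4 of the 28. These splits were not counted over all chains called for position, so they only describe the chains here. By evenness, the chain starting at 80028784 on chromosome 14 (plus strand) gained most. Its most 5′ site took 72.3% and 70.1% of the reads in siPcf11 and 89.1% and 89.7% in controls, and the most 3′ site, 6236 nt away, averaged 13.4% in siPcf11 and 1.05% in controls.

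The 4sU RNA of C2C12 cells gave a similar picture in separate libraries. The labels do not say whether 4sU and total RNA came from the same cultures. Average mean position was 50.4% and 49.9% in siPcf11 and 48.9% and 49.1% in control 4sU libraries, a difference of 1.19 points with no overlap, or 0.45 points with gaps of up to 2000 nt. Site use was called at 113 of 222 chains (34.4% of all chains) and mean position at 65 of 224, 36 further 3′ and 29 further 5′ (23.5% of all chains, 17.5% and 5.98%). Position calls numbered 37 without control 4sU replicate 1 and 39 without replicate 2. Evenness was called at 40 chains, 13 higher and 27 lower (17.2% of all, 6.73% and 10.5%), and at 18 to 22 with any of the 4 libraries left out. Levels differed at 139 chains, 58 higher and 81 lower (55.0% of all chains, 28.8% and 26.2%). Scaled to library totals the split was 42 and 116, with a median of all chains of -0.26 in place of 0.03.

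At the chromosome 13 chain the most 3′ site took 84.9% and 83.0% of 4sU reads in siPcf11 and 52.0% and 50.2% in controls. At the chain starting at 77731923 on chromosome 10 the site at 3812 nt took 57.7% and 63.2% in siPcf11 and 22.3% and 18.9% in controls. The chain starting at 23504948 on chromosome 10 again lay further 5′, with mean positions of 45.7% and 50.3% in siPcf11 and 82.6% and 87.2% in controls. A chain named from the 4sU libraries only, at 152115836 to 152118385 on chromosome 7 (minus strand), had 95.1% and 84.2% of reads at its most 3′ site in siPcf11 and 42.2% and 61.4% in controls, on 41 and 82 against 147 and 197 reads. The siPcf11 response in mean position was compared directly between 4sU and total RNA, and no chain of 224 was called (limma, 22 at an unadjusted p under 0.05, and 0% of all chains).

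**Figure D3:**
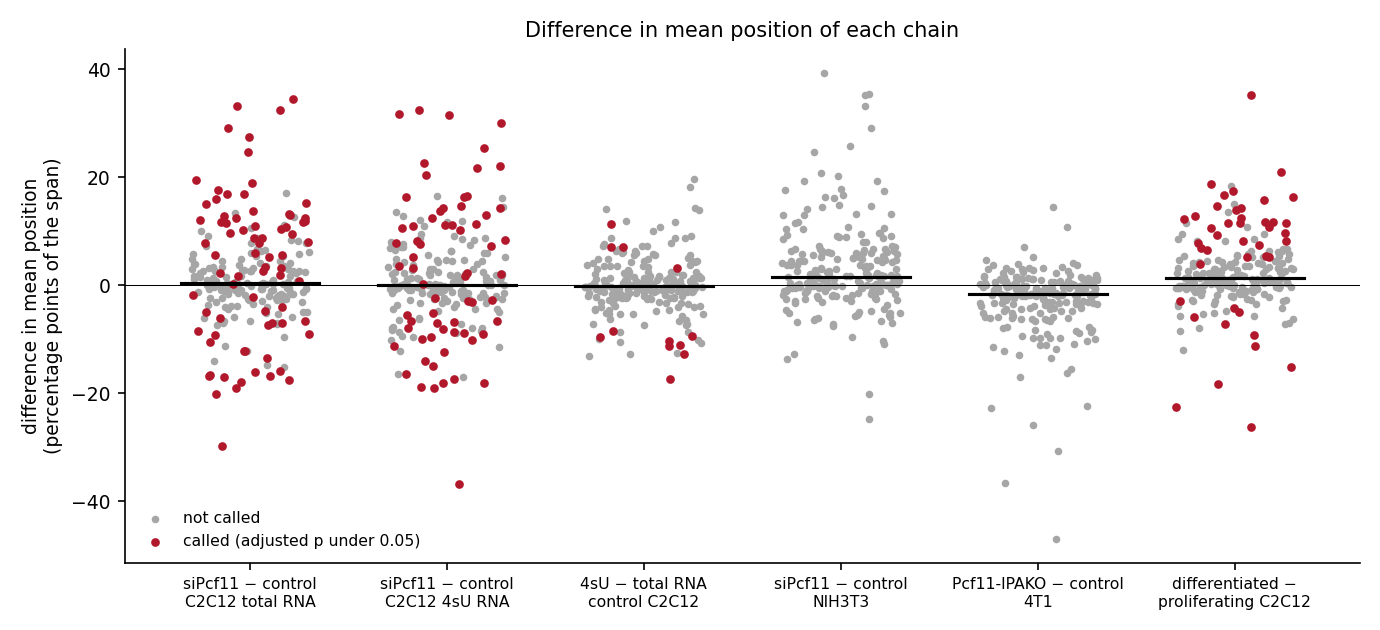
Difference in mean position (y axis, percentage points of the span, positive is further 3′ in the group named first) for each chain tested in 6 comparisons. Red points passed the limma test, grey points did not, and black lines are medians (0.46, 0.11, -0.18, 1.55, -1.67 and 1.30 from left to right). Horizontal scatter within a column is random.

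Newly made RNA and total RNA of control C2C12 cells had nearly the same average position, 48.9% and 49.1% in 4sU and 48.7% and 49.1% in total RNA. The groups overlapped. Sites within single chains were nonetheless used differently, with 58 of 222 chains called for site use (14.7% of all chains). Leaving out replicate 2 of the control 4sU libraries gave 16 such calls, and leaving out replicate 1 of total RNA gave 19. Mean position was called at 12 chains, 4 further 3′ and 8 further 5′ (3.51% of all chains, 1.97% and 1.54%), and at 0 to 3 with any of the 4 libraries left out. Levels differed at 81 chains, 20 higher and 61 lower in 4sU RNA (28.9% of all chains, 11.7% and 17.2%), and at 47, 48 and 43 without total RNA replicate 1, total RNA replicate 2 and 4sU replicate 2. Scaled to library totals the split was 29 and 35.

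The chain with the most sites, at 39979985 on chromosome 17, was higher in 4sU RNA, with 580 and 665 CPM in 4sU and 250 and 273 CPM in total RNA (log2 fold change 1.21, SE 0.12, edgeR adjusted p = 1.79e-16). Its first site took 64.5% and 74.3% of the reads in 4sU and 36.5% and 37.9% in total RNA, and the sites downstream each held smaller shares. It was the only 1 of 224 chains called for evenness (1.18% of all chains, 0.821% higher and 0.361% lower), with 0.50 and 0.40 in 4sU and 0.76 and 0.71 in total RNA (limma adjusted p = 0.0277), a call lost without 3 of the 4 libraries. At 114724367 to 114727227 on chromosome 10 (minus strand) the site at 2 nt took 49.3% and 57.1% in 4sU and 25.2% and 30.1% in total RNA. Among the chains further 3′ in 4sU RNA, the one at 21514072 to 21523647 on chromosome 14 (plus strand) had mean positions of 86.4% and 88.3% in 4sU and 79.9% and 80.6% in total RNA.

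In NIH3T3 cells, too, 3′ ends lay further 3′ in siPcf11 libraries on average. Mean position averaged 51.0% and 52.0% in siPcf11 and 48.3% and 48.4% in control libraries, a difference of 3.17 points. The fitted difference was above 0 at 142 of 225 chains (63.1%, against 65.7% of all chains). The median chain differed by 1.55 points and the median of all chains by 2.23. No single chain passed the test of mean position or evenness (limma, 41 and 27 at an unadjusted p under 0.05). None passed the level test either (edgeR, 52 at an unadjusted p under 0.05, and 14 by DESeq2), and 0% of all chains were called for these 3 measures. The siPcf11 libraries of NIH3T3 differed most among the 10 groups, with a chi-square of 24.9 per degree of freedom over chains, against 2.24 to 19.0 in the others. Leaving out single libraries moved the numbers of calls strongly, for site use in both directions. The ranges are given in the closing section without a share over all chains, so they describe the tests and no trait of these chains.

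With all 4 libraries, site use was called at 8 of 219 chains (2.83% of all chains), described here after their values were seen. At the chain starting at 77731923 on chromosome 10 the site at 3812 nt took 64.8% and 78.6% of reads in siPcf11 and 27.9% and 30.3% in controls (diffSpliceDGE adjusted p = 0.0165). That is the site that gained in C2C12. At the chain starting at 151611258 on chromosome 5 the most 5′ site took 70.3% and 88.5% in siPcf11 and 56.7% and 54.9% in controls, as it also did in C2C12. At the chain at 137421563 to 137426653 on chromosome 6 (minus strand) a distal site 5090 nt from the first took 8.62% and 12.9% in siPcf11 and 0.65% and 0.70% in controls. In C2C12 total RNA it took 3.81% and 5.95% in siPcf11 and 0.25% and 0.11% in controls. The chain at 69477715 to 69486617 on chromosome 11 (minus strand) went the other way, with 66.4% and 79.1% at the most 5′ site in siPcf11 and 42.7% and 38.5% in controls. All 8 chains were also called for site use in C2C12 total RNA, 6.20% of the 129 called there. Over all chains tested in both, 54 of the 60 called in NIH3T3 (90%) were also called there, 6.32% of the C2C12 calls.

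The test of whether the siPcf11 response differed between NIH3T3 and C2C12 total RNA called 2 of 224 chains (1.58% of all chains). In both, mean position was lower in siPcf11 than in control C2C12 libraries and differed little in NIH3T3. The number of calls was 33 without NIH3T3 siPcf11 replicate 1 and 9 without its replicate 2. It was 0 without either NIH3T3 control, either C2C12 control or C2C12 siPcf11 replicate 2.

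In 4T1 cells the average lay further 5′ in Pcf11-IPAKO libraries. Mean position was 42.9% and 43.3% in Pcf11-IPAKO libraries and 45.7% and 46.4% in controls, a difference of -2.94 points. The fitted difference was above 0 at 63 of 219 chains (28.8%, against 32.1% of all chains). The average share of the most 5′ site differed by 1.58 points and that of the most 3′ site by -1.77 points. Sites that could pass the read minimum largely through the Pcf11-IPAKO libraries, as described below, enter these averages. Their part in the differences was not tested. Over the 219 the median was -1.67 points and over all chains tested it was -1.65, and the medians lay close together. No chain was called for mean position or evenness (limma, 30 and 4 at an unadjusted p under 0.05, and 0% of all chains). Of 219 chains, 1 was called for level (0.886% of all chains, 0.673% higher and 0.213% lower), at 104869929 on chromosome 5, with 105 and 104 CPM in Pcf11-IPAKO and 627 and 400 CPM in controls (log2 fold change -2.17, SE 0.33, edgeR adjusted p = 0.0101). Level calls numbered 3 by DESeq2. Deviations of same-numbered 4T1 libraries correlated at 0.47 over chains, and a replicate block gave more level calls, as the closing section gives.

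**Figure D4:**
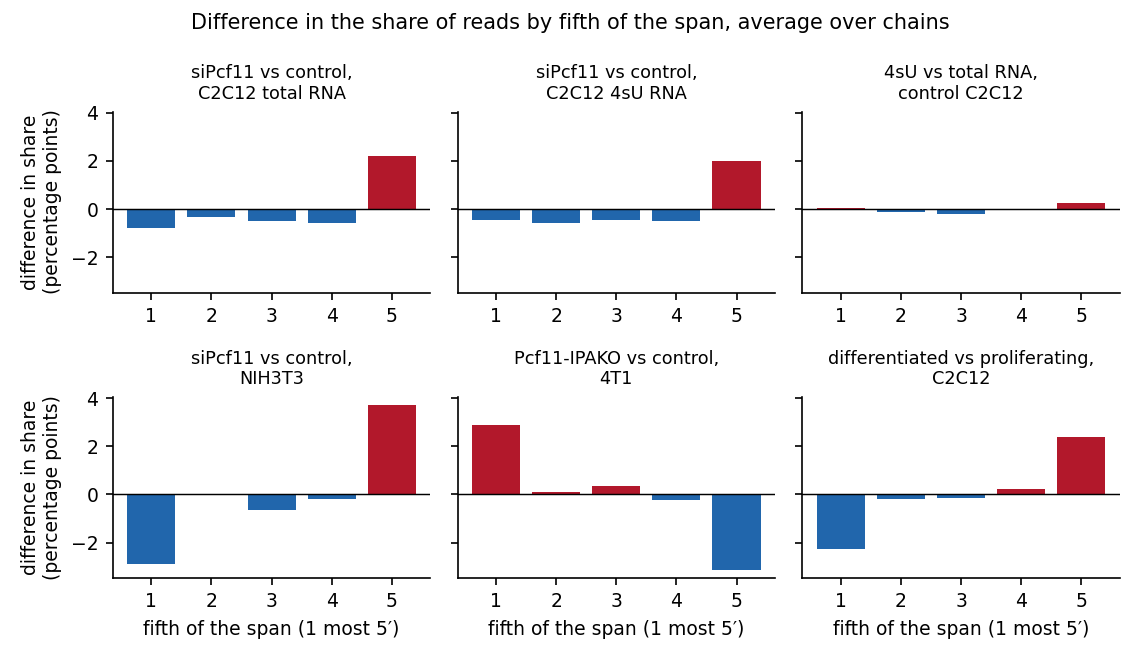
Difference in the share of reads (y axis, percentage points, first-named group minus the other) in 5 equal parts of the span, from the most 5′ (1) to the most 3′ (5), averaged over 219 chains in 6 comparisons. The last class differs by 2.20, 1.98, 3.71 and 2.40 points in the siPcf11 and differentiation comparisons and by -3.12 points in Pcf11-IPAKO, where the first differs by 2.88 points.

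Site use was called at 8 of 212 chains in 4T1 (1.06% of all chains), and at 5 without Pcf11-IPAKO replicate 2 or control replicate 1. These were examined after their values were seen. In most of them a site that was little used in 4T1 controls had a higher share in Pcf11-IPAKO. Sites were kept on pooled reads, so such a site could pass the minimum largely through the Pcf11-IPAKO libraries. The chromosome 9 site below had 127 and 214 reads in Pcf11-IPAKO and 9 and 22 in controls. The chromosome 3 site had 205 and 373 against 14 and 52. Higher shares at such sites thus follow in part from how sites were kept, and are given as descriptions. At 153570253 to 153574569 on chromosome 3 (minus strand) the site 716 nt from the 5′ end took 78.8% and 61.6% of the reads in Pcf11-IPAKO and 13.9% and 16.4% in controls. At 120033443 to 120041017 on chromosome 9 (plus strand) the site at 5792 nt took 47.2% and 43.4% in Pcf11-IPAKO and 3.85% and 6.85% in controls. The chromosome 11 chain at 69477715 had 48.2% and 53.8% at 3869 nt in Pcf11-IPAKO and 6.73% and 12.6% in controls. The chain at 23504948 on chromosome 10 had 41.0% and 56.1% at 466 nt in Pcf11-IPAKO and 1.80% and 13.7% in controls.

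In 7 of the 8 chains the site with the largest gain had few reads outside 4T1, also when every listed position within 24 nt of it was counted. The sites on chromosomes 3, 9, 11 and 10 then had 644, 372, 2000 and 760 reads in the 4 libraries of 4T1 and 6, 2, 3 and 1 in the 12 C2C12 libraries, and none in NIH3T3. At the chain at 88241480 on chromosome 1 a site with 690 reads in 4T1 and none elsewhere took 2.99% and 3.51% in Pcf11-IPAKO and 0.23% and 0.33% in controls. The exception was 44267337 to 44269802 on chromosome 15 (plus strand). Its most 5′ site was read in all lines and took 51.6% and 57.9% in Pcf11-IPAKO and 27.4% and 19.6% in controls. As given above, the Pcf11-IPAKO libraries also listed more positions per read than their controls, and the part of this in the gains was not tested.

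Differentiated C2C12 cells had a more 3′ average than proliferating ones, 51.3% and 51.4% against 49.0% and 49.1%, a difference of 2.29 points with libraries of a group almost alike. With gaps of up to 2000 nt it was 1.28 points. The average share of the most 3′ site differed by 2.13 points. Site use was called at 119 of 224 chains (28.6% of all chains), and at 79 and 77 without differentiated replicate 1 and 2. Mean position was called at 43 chains, 32 further 3′ and 11 further 5′ (10.9% of all chains, 7.72% and 3.20%). This number fell to 1 without either differentiated library and to 20 without proliferating replicate 1. Evenness was called at 22 chains, 5 higher and 17 lower (6.90% of all, 2.63% and 4.27%), and at 0 with any library left out.

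The chain at 122903528 to 122906347 on chromosome 5 (minus strand) changed most. Its most 3′ site took 67.8% and 69.3% of the reads in differentiated cells and 36.6% and 42.0% in proliferating cells. The site at 10 nt took 3.96% and 5.13% in differentiated and 32.1% and 31.0% in proliferating cells. Mean position differed by 35.3 points (SE 1.18, limma adjusted p = 0.00133). Its level was also higher, at 574 and 537 CPM in differentiated and 89.0 and 103 CPM in proliferating cells (log2 fold change 2.69, SE 0.11, edgeR adjusted p = 2.75e-17). On chromosome 6 (minus strand), at 82596704 to 82597730, the most 3′ site took 61.4% in both differentiated libraries and 36.6% and 42.3% in proliferating ones.

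Shifts toward 5′ ends were fewer. At 98877688 to 98879690 on the X chromosome (plus strand) the most 3′ site took 48.5% and 50.5% of the reads in differentiated and 82.7% and 87.3% in proliferating cells, and all 5 upstream sites had higher mean shares in differentiated cells. Evenness there was 0.83 and 0.80 in differentiated and 0.40 and 0.32 in proliferating cells (limma adjusted p = 0.015). In siPcf11 total RNA the same site took 97.5% and 96.2%, against 73.7% and 82.4% in controls. On chromosome 7 (minus strand), at 52380928 to 52386558, the most 5′ site took 21.1% and 23.5% in differentiated and 2.63% and 3.30% in proliferating cells.

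Levels differed at 166 of 224 chains in differentiation, 75 higher and 91 lower (61.6% of all chains, 31.2% and 30.5%). Scaled to library totals the split was 66 and 105. The chain starting at 88049703 on chromosome 8 (plus strand) rose most, with 746 and 760 CPM in differentiated and 96.0 and 101 CPM in proliferating cells (log2 fold change 3.10, SE 0.11, edgeR adjusted p = 4.78e-19). The chain starting at 23109099 on chromosome 16 (plus strand) fell most, to 4.13 and 2.93 CPM in differentiated cells against 56.4 and 63.6 CPM in proliferating cells (log2 fold change -3.93, SE 0.23, edgeR adjusted p = 6.77e-14).

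The siPcf11 and differentiation experiments in C2C12 share no library. Mean position was called in both at 19 of 224 chains (8.48%), against 168 of 3039 over all chains tested in both (5.53%). The 19 made up 25.0% of the 76 called for siPcf11 in total RNA and 44.2% of the 43 called for differentiation, and over all chains these shares were 20.5% and 49.9%. Of the 19, 13 were further 3′ in both, none further 5′ in both, 2 further 3′ in siPcf11 and further 5′ in differentiation, and 4 the reverse. Over all chains, 135 of the 168 (80.4%) differed in the same direction. Levels were called in both at 114 of 224 chains (50.9%, against 36.1% of all chains), where most chains were called in each comparison alone (148 and 166). Of the 114, 24 were higher in both, 52 lower in both, 16 higher only in siPcf11 (and lower in differentiated cells) and 22 the other way round. Over all chains, 2217 of 3440 called in both (64.4%) differed in the same direction.

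Site use was called at the largest share of chains in the class of 6 or more sites in all comparisons but NIH3T3, and the share did not rise at every step. In siPcf11 C2C12 total RNA the share was 65.3% for chains of 6 or more sites, 52.4% for 5, 49.4% for 4 and 33.2% for 2. Differentiation gave 64.0%, 44.4%, 38.4% and 21.7%. In siPcf11 4sU RNA the shares were 65.3%, 39.5%, 45.9% and 28.0%, and for 4sU against total RNA 38.8%, 16.1%, 20.3% and 11.1%, so chains of 5 sites lay below those of 4. In NIH3T3 they were 3.06%, 4.13%, 2.74% and 2.51%, and in 4T1 6.19%, 1.74%, 1.37% and 0.36%. Reads rose along the same order, with medians of 386, 242, 215 and 106 per library in the siPcf11 comparison, and their part in the share was not tested. In siPcf11 C2C12 total RNA, chains that kept 5 or more sites after merging were called for site use at 64.5% (141 tested). Those that did not were called at 46.9% (81 tested). The order was the same in the other comparisons except NIH3T3, where the shares were 2.82% (142 tested) and 5.19% (77 tested).

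**Figure D5:**
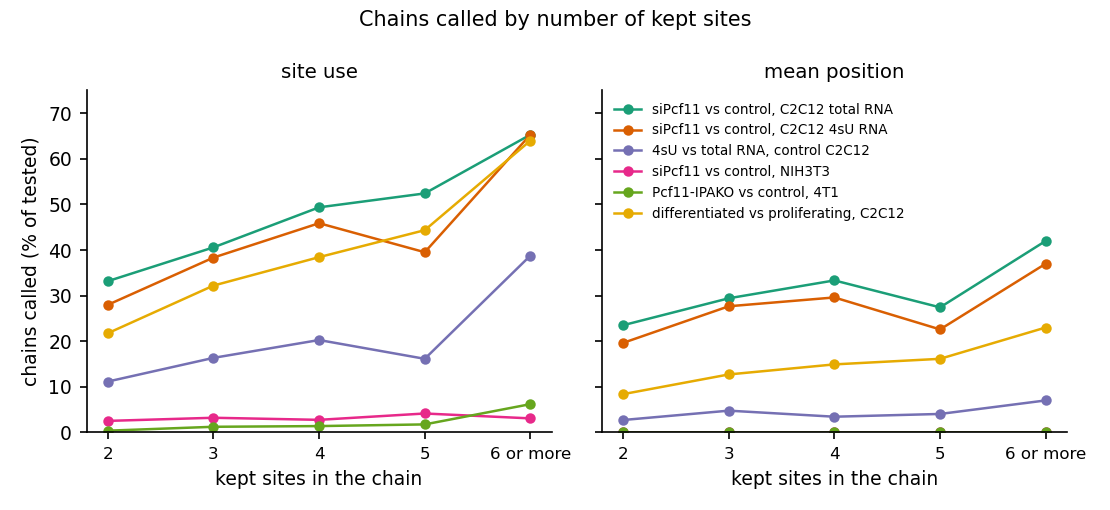
Share of tested chains that were called (y axis, percent) for site use (left) and mean position (right) by the number of kept sites in the chain (x axis), in 6 comparisons (lines). Site use was called at 65.3% of chains of 6 or more sites and 33.2% of chains of 2 in siPcf11 C2C12 total RNA, while NIH3T3 and 4T1 reach 4.13% and 6.19% at most for site use and have no call for mean position.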

How the data were processed

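The deposited 3′READS tables list chromosome, strand, position and a read count per poly(A) site. The counts, as the authors deposited them, are whole numbers with no normalization, and library totals differ. Per the submitters' processing notes the build was mm9 and the tools included cutadapt, Bowtie2 and STAR. How reads were grouped into sites is not given in the sources used here. Listing positions apart in each cell line can raise the number of sites in a chain, as the results give. The 2 RNA-seq libraries of 3T3-L1 cells carry no sites and were not used.

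Groups came from the sample titles. Counts were summed per chain and tested in R 4.3.3 with edgeR 4.0.16 (TMM scaling of kept-site reads, filterByExpr with a minimum count of 10, quasi-likelihood fit). The same package's diffSpliceDGE tested site use. Mean position and evenness were tested with limma 3.58.1, for chains with a mean of at least 20 reads per library. The 8 C2C12 siRNA libraries shared 1 fit, and the other experiments had a fit each. Chains with a single read site in the libraries of a fit have constant position and evenness, which breaks limma's variance estimate. They were left out, unlike in the written design (435 chains in the C2C12 siRNA fit, 627 in NIH3T3, 528 in 4T1, 487 in differentiation, 714 in the test between lines), and the fit as designed is given as an alternative. CPM are reads per 1000000 reads of a library's whole table. Averages over chains leave out 6 chains with no reads in some library.

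Named chains are, by rule, the 4 with the most sites, the 4 with the most reads, the longest, the shortest, and per comparison those with the largest called changes. The changes named are in position (3 each way), level (2) and evenness (1), with at least 100 mean reads and no overlap between groups. The chains called for site use in NIH3T3 and 4T1 and for the difference between lines were named after their values were seen. The chains and lists were chosen with earlier results of these data known. Libraries of a group differed beyond counting noise (chi-square per degree of freedom 2.24 to 24.9), which does not show that they stem from separate cultures. Each library was counted as a sample. Alternatives were other scaling, DESeq2 1.42.0, other filters, gaps and read minimums, thinned libraries, a replicate block and each library left out. The tests were tried on simulated data. Chains were built in Python 3.11.15 (pandas 2.3.3) and figures drawn with matplotlib 3.10.9.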

Additional observations from a re-analysis of the deposited data

Results flagged for a closer look

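Among the 225 chains, 2 had a siPcf11 response in mean position that differed between NIH3T3 and C2C12 total RNA in a test of the difference itself (limma, Benjamini-Hochberg adjusted). At 38417182 to 38419614 on chromosome 15 (minus strand) the response was 21.1 points higher in NIH3T3 (SE 2.47, adjusted p = 0.0140). NIH3T3 mean positions were 34.9% and 37.7% in siPcf11 and 32.9% and 32.5% in controls, and C2C12 ones 22.5% and 20.5% in siPcf11 and 40.5% and 37.6% in controls. At 61747808 to 61749974 on chromosome 18 (plus strand) the response was 18.6 points higher in NIH3T3 (SE 2.67, adjusted p = 0.0290). NIH3T3 mean positions there were 49.1% and 50.3% in siPcf11 and 45.8% and 48.7% in controls, and C2C12 ones 29.2% and 32.3% in siPcf11 and 45.4% and 48.4% in controls. No cause was tested.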

How the results depend on the processing

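Numbers are chains called out of the 225 unless stated, and causes were not tested except where the setting's construction shows them. The number of chains with 5 or more sites was 559 with a minimum of 100 pooled reads, 49 with 500 and 144 with sites up to 24 nt apart merged, a setting added after the data were seen. With gaps of up to 2000 nt the average difference in mean position was 0.35 points for siPcf11 in total RNA, 0.45 in 4sU RNA, -0.45 for 4sU against total RNA (0.04 otherwise) and 1.28 for differentiation, which then had 25 position calls. Keeping chains with 1 read site, as first designed, gave 1 position and 0 evenness calls for 4sU against total RNA, 12 and 5 for differentiation, and 5 chains with a response differing between NIH3T3 and C2C12. DESeq2 called levels at 53 chains for 4sU against total RNA, 14 in NIH3T3 and 3 in 4T1. Without a low-count filter NIH3T3 had 5 site use calls and 4T1 3 level calls. Other settings not named here kept each number within 1.5 times.

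Replicate numbers are shared between groups, but the labels give them no common origin and each comparison has only 2 pairs. Same-numbered deviations correlated at 0.07 to 0.12 over chains, and at 0.47 in 4T1. With the replicate block, level calls were 18 in NIH3T3 and 28 in 4T1, evenness calls for 4sU against total RNA were 4, and blocking by treatment and number gave 6 position calls there. The block moved no other number by over 1.5 times.

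Leaving out each library in turn moved several numbers. For siPcf11 in total RNA, position calls ranged from 46 to 58 and evenness calls from 22 to 35, and in 4sU RNA from 37 to 47 and 18 to 22. For 4sU against total RNA, level calls ranged from 43 to 67, site use from 16 to 54, position from 0 to 3, evenness from 0 to 1, and the average difference from -0.15 to 0.23 points. In NIH3T3, level calls ranged from 0 to 104, site use from 0 to 155 and position from 0 to 19. In 4T1, level calls ranged from 1 to 3 and site use from 5 to 7. In differentiation, site use ranged from 77 to 109, position from 1 to 36 and evenness stood at 0. The response differing between NIH3T3 and C2C12 ranged from 0 to 33. A group left with 1 library was assumed to vary like the others in its fit. With a median of 212 to 657 reads per chain and library, shares of a few percent rest on few reads and small changes of rare sites were not detectable.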
